A study of Mus musculus with 10 samples.

Results

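The noncoding snoRNA host genes are long noncoding RNA genes that carry small nucleolar RNAs (snoRNAs) in their transcripts. The 10 genes described here were picked by name as rows of the gene count table, namely Gas5, Snhg1, Snhg3, Snhg5, Snhg6, Snhg8, Snhg11, Snhg12, Snhg20 and Zfas1, out of 25239 genes listed. All 10 passed the filter on low counts and are among the 18419 genes tested. No measured value entered the choice, but earlier results of these data were known when it was made.

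RNA-seq was run on testis RNA of C57BL/6 mice aged 4 days (P4) and 7 days (P7) after birth. The conditional knockout samples (cKO) carry the genotype label Lsm7-flfl-stra8, with 3 libraries at each stage, and the wild-type samples (WT) have 2 libraries at each stage. The labels name no Cre line, no recombined cell type and no separate animals, so the p-values reflect only how far these samples scatter, in part perhaps for technical reasons. They give germ cell as the cell type, while the protocol extracts RNA from testis and mentions no sorting. Markers of Sertoli, Leydig, stromal, endothelial and germ cells were all read in every group.

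Library totals ran from 28.8 to 41.8 M reads. The P7 WT libraries differed from each other by about the sampling noise, with a chi-square per degree of freedom of 1.98 against 23.5 to 122.9 for other pairs of one group, and were summed and counted as 1 sample. That leaves 9 samples, with no spread of its own for P7 WT. P7 cKO library 1 stood apart from the other P7 cKO libraries, at 117.3 and 122.9 on the same measure, and results that rest on it are given with and without it. Lsm7, the targeted gene, had 44.9, 50.5 and 43.6 CPM (counts scaled to 1 M reads, with TMM factors between libraries) in the P4 libraries labelled cKO, against 36.2 and 25.7 CPM in P4 WT. At P7 it had 45.2, 26.0 and 20.3 CPM in the libraries labelled cKO and 33.3 CPM in the WT sample. No lower Lsm7 level was detected in either stage (edgeR quasi-likelihood test, adjusted p = 0.215 at P4 and 0.835 at P7). The labels were thus not borne out by the targeted gene. A count over the whole gene in testis RNA could miss a loss in few cells or in part of the gene, so it cannot decide on the labels. They are used as given.

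In the nucleus, a host transcript is spliced, and the snoRNA is trimmed out of the freed intron and packed into a ribonucleoprotein that guides chemical modification of ribosomal RNA. Box C/D snoRNAs guide 2′-O-methylation and box H/ACA snoRNAs guide pseudouridylation. The spliced exons left behind are exported in several hosts and then removed by nonsense-mediated decay, and many hosts, Gas5 among them, start with a pyrimidine tract like that of ribosomal protein mRNAs. Lsm7 encodes a subunit shared by the nuclear LSm ring, which holds U6 small nuclear RNA for splicing, and the cytoplasmic LSm ring of mRNA decapping, so a host RNA passes through processes in which both rings act.

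The count table lists 9 snoRNA genes that lie within 6 of the hosts on the same strand. The box C/D snoRNAs among them are printed here because their reads are set against those of their hosts below. The sequences are from the GENCODE M21 annotation of GRCm38, 5′ to 3′ on the host strand, and capitals mark the C box letters TGATGA and the D box letters CTGA where a search of the ends found them. GENCODE's ends differ from those of the count table for all but Snord22.
Snord47 in Gas5, chr1:161038082-161038158, plus strand: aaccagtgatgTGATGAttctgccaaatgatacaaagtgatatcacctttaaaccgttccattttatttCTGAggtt
Snord22 in Snhg1, chr19:8725866-8725991, plus strand: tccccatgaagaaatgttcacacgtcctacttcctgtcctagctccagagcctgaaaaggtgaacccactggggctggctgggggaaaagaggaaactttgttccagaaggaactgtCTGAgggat
Snord87 in Snhg6, chr1:9942463-9942549, minus strand: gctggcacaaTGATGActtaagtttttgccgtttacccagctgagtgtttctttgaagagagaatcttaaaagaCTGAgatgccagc
Snord99 in Snhg12, chr4:132310691-132310764, plus strand: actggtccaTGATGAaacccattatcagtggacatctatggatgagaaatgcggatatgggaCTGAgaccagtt
Snord12 in Zfas1, chr2:167065276-167065365, plus strand: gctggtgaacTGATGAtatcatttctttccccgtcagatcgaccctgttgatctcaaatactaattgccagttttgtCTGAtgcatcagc

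Start sites were read from RefSeq windows on GRCm38.p6, which cover 9 of the 10 hosts. Snhg6 has no entry. A run of at least 5 C or T letters that starts with C was searched within 20 bases either side of the annotated start, and such a run is in capitals below. It was found in 5 of the 9 hosts (55.6%), against 45.9% of 32851 windows of the same length, and on the opposite strand in 33.3% and 49.9%, so the share among hosts lay near that of all genes. The windows shown are 3 with a run at the start and that of Snhg11, which has none. Snhg11 is shown because it is the host that fell in P4 cKO. Snhg1, Snhg20 and Zfas1 had no run either, and a link between runs and levels was not tested.
Gas5, chr1:161035146-161035185, plus strand: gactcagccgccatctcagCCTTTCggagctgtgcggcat
Snhg8, chr3:123508317-123508356, minus strand: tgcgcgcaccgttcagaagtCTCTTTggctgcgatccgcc
Snhg12, chr4:132308658-132308697, plus strand: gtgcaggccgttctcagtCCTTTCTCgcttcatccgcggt
Snhg11, chr2:158375693-158375732, plus strand: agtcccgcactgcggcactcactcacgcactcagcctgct

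The hosts are small transcription units. Their exons summed to a median of 672 bases, against 2821 bases over all genes tested, and their GC content had a median of 45.7%, against 50.7%. Gas5 (chr1:161034916-161038539, plus strand) has the most exons, 12 in 751 bases, and Snhg8 (chr3:123507552-123508336, minus strand) has a single exon of 785 bases. Snhg1 lies at chr19:8723487-8726326 on the plus strand, Snhg5 at chr9:88521053-88522897 on the minus strand and Snhg6 at chr1:9942025-9944118 on the minus strand. Snhg12 (chr4:132308678-132311024, plus strand) and Snhg3 (chr4:132351933-132353686, minus strand) are neighbours on chromosome 4. Snhg20 lies at chr11:117076783-117078955 on the plus strand. Snhg11 (chr2:158375713-158386474, plus strand) is the longest, with 6118 exon bases in 5 exons. Zfas1 lies at chr2:167062934-167065862 on the plus strand, and its first exon overlaps the start of Znfx1 on the other strand. How the counting treated strand is not given in the sources used here, so reads of the shared stretch cannot be assigned to either gene.

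Per kilobase of exon, Gas5 was the most abundant host in all 4 groups, followed by Snhg1 and then Snhg6. Gas5, known as a growth-arrest RNA, averaged 333 ± 61.2 CPM per kb in P4 cKO (SD, n = 3), 242 ± 20.2 in P4 WT (SD, n = 2), 229 ± 80.5 in P7 cKO (SD, n = 3) and 285 in the P7 WT sample. Snhg1 averaged 183 ± 17.4 CPM per kb in P4 cKO, 177 ± 19.6 in P4 WT, 145 ± 52.9 in P7 cKO and 173 in P7 WT, with the same numbers of samples. At P4 the ranges of Gas5, Snhg1 and Snhg6 did not overlap in either genotype, while in P7 cKO they did. The next places, from Snhg20 to Snhg8, overlapped in most neighbouring pairs of P4 cKO. Snhg11 was the lowest in every group, at 1.87 ± 0.319 CPM per kb in P4 cKO, 6.48 ± 1.58 in P4 WT, 6.75 ± 1.75 in P7 cKO and 11.3 in P7 WT, and its range overlapped that of no other host. Snhg20 took rank 4 in P4 cKO, P4 WT and P7 cKO, but rank 8 in the P7 WT sample.

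**Figure D1:**
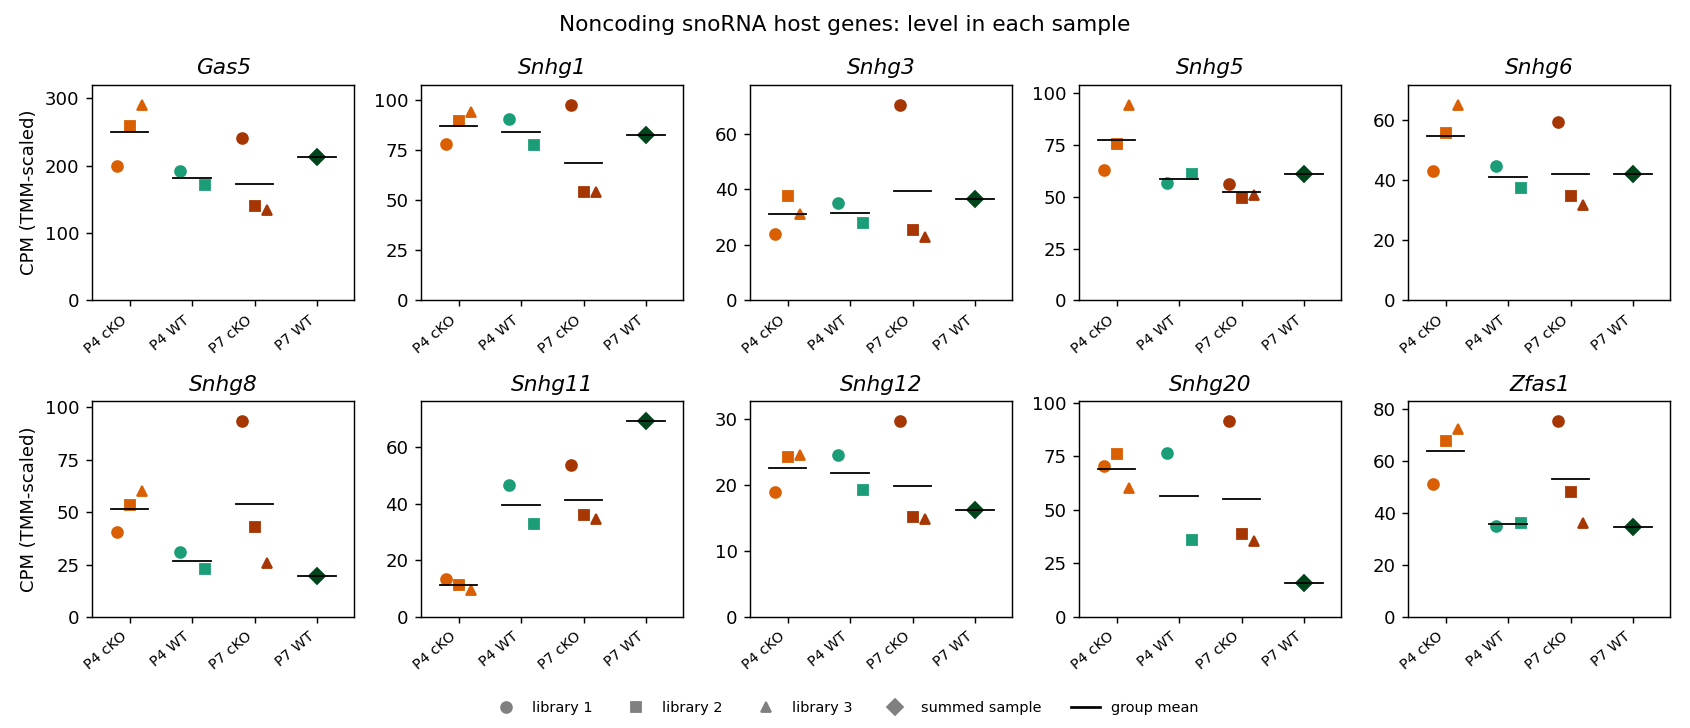
Level of each host gene in each sample, in CPM with TMM scaling on the vertical axis (each panel from 0 on its own scale) and the 4 groups on the horizontal axis. Markers give the library number, the diamond is the P7 WT sample summed from 2 libraries, and the black bar is the group mean; Snhg11 has its lowest values, 9.59 to 13.5 CPM, in P4 cKO, and P7 cKO library 1 (circle) lies above the other P7 cKO libraries in all 10 panels.

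At P4, Snhg11 was the only host gene past the threshold with all libraries in edgeR, and it fell 3.46-fold in the libraries labelled cKO. Snhg11 is best known as a noncoding RNA abundant in neurons. It had 13.5, 11.3 and 9.59 CPM in P4 cKO, against 46.5 and 32.8 CPM in P4 WT, and the groups were far from overlapping. The log2 fold change was -1.79 ± 0.24 (SE; edgeR quasi-likelihood test, Benjamini-Hochberg adjusted p = 0.0114 over 18419 genes). Thus 1 of 10 hosts passed, lower, where 8.96% of all genes passed, 4.84% higher and 4.13% lower. The sign held in all 22 alternatives and the call in 19. It was lost without P4 WT library 1 (log2 -1.52, adjusted p = 0.186), without P4 cKO library 2 (adjusted p = 0.0550) and without P4 cKO library 3 (adjusted p = 0.0549), and the adjusted p ranged from 2.75e-08 to 0.186 over all alternatives. In these 3 fits 2, 13 and 11 of all genes passed in that order, against 1651 with every library. In bulk tissue, fewer cells of a type and less RNA per cell cannot be told apart.

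The box C/D hosts gave mostly higher values in P4 cKO, none past the threshold. Zfas1, the host of Snord12 and known from the mouse mammary gland, had 51.2, 67.6 and 72.2 CPM in P4 cKO, against 35.1 and 36.2 CPM in P4 WT. Gas5 had 200.4, 259 and 291 CPM in P4 cKO, against 192 and 171 CPM in P4 WT. Snhg5, which is known to host snoRNAs of the Snord50 family, had 62.9, 75.4 and 94.4 CPM in P4 cKO, against 56.6 and 60.9 CPM in P4 WT. In these 3 genes every cKO library lay above every WT library, though by little for Gas5 and Snhg5. Zfas1 had a log2 fold change of 0.84 ± 0.28 (SE, edgeR adjusted p = 0.0776), Gas5 of 0.46 ± 0.26 (adjusted p = 0.260) and Snhg5 of 0.40 ± 0.19 (adjusted p = 0.182). DESeq2 called Zfas1 (adjusted p = 0.0401), and 16.3% of all genes, and edgeR on the P4 libraries alone called Zfas1 (adjusted p = 0.0141) and Snhg8 (adjusted p = 0.0151), and 19.1% of the genes in that fit.

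The remaining box C/D hosts overlapped between genotypes at P4. Snhg6 had 43.1, 55.8 and 65.2 CPM in P4 cKO, against 44.8 and 37.5 CPM in P4 WT. Snhg1 had 78.1, 89.5 and 94.1 CPM in P4 cKO, against 90.8 and 77.6 CPM in P4 WT. Snhg12, which holds 3 H/ACA snoRNAs besides Snord99, had 19.0, 24.2 and 24.5 CPM in P4 cKO, against 24.5 and 19.2 CPM in P4 WT. For Snhg1 and Snhg12 the ranges of the genotypes nearly coincided.

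Of the H/ACA hosts, Snhg8, which carries Snora24, stood higher in P4 cKO and Snhg3 did not. Snhg8 had 40.7, 53.2 and 60.1 CPM in P4 cKO, against 30.8 and 23.1 CPM in P4 WT, with no overlap. Its log2 fold change of 0.93 ± 0.44 (SE, edgeR adjusted p = 0.186) did not pass. Snhg3, which is known to host the Snora73 snoRNAs, had 24.0, 37.7 and 31.1 CPM in P4 cKO, against 35.1 and 28.0 CPM in P4 WT. Snhg20, whose human counterpart hosts a small Cajal body RNA, had 70.4, 75.9 and 60.3 CPM in P4 cKO, against 76.5 and 36.0 CPM in P4 WT, where the WT libraries lay far apart. Over the 10 hosts the median log2 fold change was 0.35, against 0.00 over all genes tested. Groups did not overlap for 4 hosts higher in cKO, where 24.1% of all genes were, and for 1 host lower, where 25.6% were. With a correction for exon length the median of the hosts was 0.02, and 1 host, Snhg11, passed, where 6.66% of all genes did.

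At P7, no host gene passed the threshold between the genotypes in edgeR, where 17% of all genes did, 7.26% higher and 9.72% lower. 3 hosts had an unadjusted p under 0.05, as did 33.3% of all genes. DESeq2 called 2 hosts and 4247 of the 18419 genes, and limma-voom called 1 host and 3485 genes. The largest difference was that of Snhg20, with 91.4, 38.7 and 35.4 CPM in P7 cKO, against 15.8 CPM in the P7 WT sample. All 3 cKO libraries lay above WT, and library 1 lay far above the others. The log2 fold change was 1.80 ± 0.58 (SE, edgeR adjusted p = 0.0555), and it passed in 10 of 22 alternatives, with adjusted p from 0.00139 to 0.358 and log2 values from 0.89 to 2.04.

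Snhg8 and Zfas1 were again higher in the libraries labelled cKO, short of the threshold. Snhg8 had 93.4, 42.8 and 25.5 CPM in P7 cKO, against 19.6 CPM in P7 WT, with a log2 fold change of 1.46 ± 0.59 (SE, edgeR adjusted p = 0.114). Zfas1 had 75.2, 47.9 and 36.2 CPM in P7 cKO, against 34.5 CPM in P7 WT, with a log2 fold change of 0.62 ± 0.35 (adjusted p = 0.241). For both genes the third cKO library came close to the WT sample. Without P7 cKO library 1 the log2 values were 0.80 ± 0.32 for Snhg8 (SE, edgeR adjusted p = 0.0759) and 0.28 ± 0.25 for Zfas1 (adjusted p = 0.414).

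Snhg11 was again lower in the libraries labelled cKO, with 53.6, 35.8 and 34.5 CPM, against 69.1 CPM in P7 WT. The log2 fold change of -0.74 ± 0.29 (SE, edgeR adjusted p = 0.103) did not pass. Snhg5 had 56.3, 49.5 and 50.7 CPM in P7 cKO, against 61.0 CPM in P7 WT, so that all cKO libraries lay below WT by a small margin. Groups did not overlap for 3 hosts higher in cKO (Snhg8, Snhg20 and Zfas1), where 36.2% of all genes were, and for 2 lower (Snhg5 and Snhg11), where 34.6% were. A group of 1 sample makes such separation frequent.

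In the other 5 hosts the P7 WT value lay below cKO library 1 and above cKO libraries 2 and 3. Gas5 had 242, 140.4 and 134 CPM in P7 cKO, against 214 CPM in P7 WT. Snhg1 had 97.9, 54.4 and 54.3 CPM in P7 cKO, against 82.5 CPM in P7 WT. For both, libraries 2 and 3 nearly coincided below the WT value. Snhg3 had 70.4, 25.2 and 22.9 CPM in P7 cKO, against 36.3 CPM in P7 WT. Snhg6 had 59.4, 34.9 and 31.6 CPM in P7 cKO, against 42.3 CPM in P7 WT. Snhg12 had 29.7, 15.2 and 14.8 CPM in P7 cKO, against 16.3 CPM in P7 WT. The median log2 fold change of the 10 hosts was 0.05, against 0.08 over all genes tested. With a correction for exon length, Gas5 (log2 -0.90, edgeR adjusted p = 0.0401) and Snhg1 (log2 -0.85, adjusted p = 0.0326) were lower in P7 cKO, where 13% of all genes passed, and the median of the hosts was -0.47. With a correction for both exon length and GC content neither passed, Gas5 at -0.05 (adjusted p = 0.940) and Snhg1 at 0.06 (adjusted p = 0.924), 2 of all genes passed, and the median of the hosts was 0.19.

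P7 cKO library 1 was the highest of the 3 P7 cKO libraries in 10 of 10 hosts, against 39.9% of all genes tested. Its CPM was 1.12 times the mean of the other 2 libraries for Snhg5 and 2.93 times for Snhg3, with a median of 1.80 over the hosts and 0.960 over all genes. Ratios were 2.73 for Snhg8 and 2.46 for Snhg20. The same library was highest in 7 of 9 other noncoding snoRNA hosts that were tested, with a median ratio of 1.75. Among hosts that code for ribosomal proteins it was highest in 8 of 18, with a median ratio of 0.996. Short genes in general were higher in this library, which was the highest of the 3 in 52.0% of the 4605 genes with the shortest exons and in 29.7% of the 4603 with the longest. The part that this length trend plays in the host values was not tested.

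**Figure D2:**
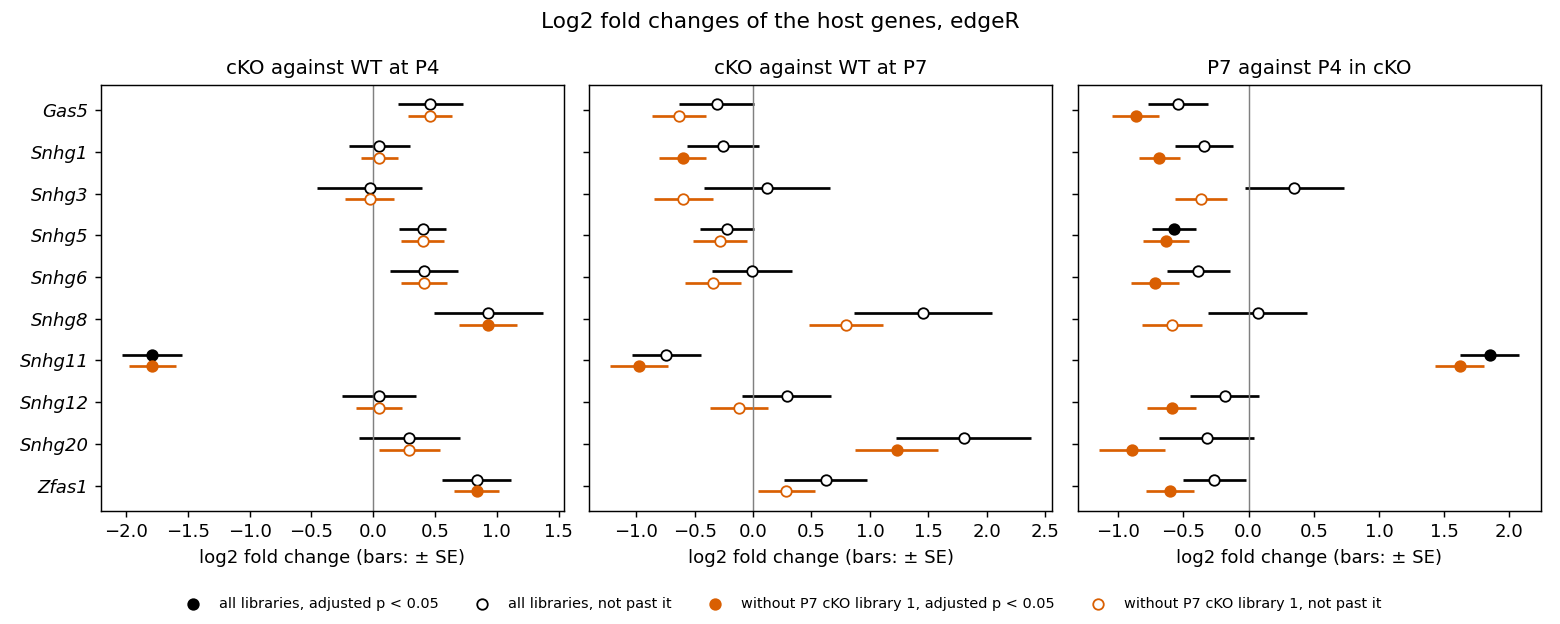
Log2 fold changes with SE bars (horizontal axis) of the 10 host genes (vertical axis) in 3 comparisons, with all libraries in black and without P7 cKO library 1 in orange; filled points passed an adjusted p of 0.05 in edgeR. Without that library 7 hosts passed as lower at P7 than at P4 in cKO, where 15.3% of all genes did. Snhg11 passed as higher in both fits.

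Without P7 cKO library 1, the common biological coefficient of variation over all genes was 0.176, against 0.228 with it, and more hosts passed. At P4 the fold changes were the same to 2 decimals, and Zfas1 (edgeR adjusted p = 0.00664) and Snhg8 (adjusted p = 0.0131) passed as higher beside Snhg11 as lower, where 22.7% of all genes passed. At P7, Snhg20 was higher in cKO, with a log2 fold change of 1.23 ± 0.35 (SE, adjusted p = 0.0226). Snhg11, at -0.97 ± 0.25 (adjusted p = 0.0105), and Snhg1, at -0.60 ± 0.20 (adjusted p = 0.0385), were lower, where 26.9% of all genes passed. The median of the hosts at P7 was then -0.31, against 0.07 over all genes. Gas5, at 140.4 and 134 CPM in the remaining cKO libraries against 214 CPM in WT, was not past the threshold (adjusted p = 0.0539).

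From P4 to P7 in the libraries labelled cKO, Snhg11 rose and Snhg5 fell. Snhg11 had 53.6, 35.8 and 34.5 CPM at P7, against 13.5, 11.3 and 9.59 CPM at P4, a 3.61-fold rise with every P7 library above every P4 library. Its log2 fold change was 1.85 ± 0.23 (SE, edgeR adjusted p = 2.06e-04), and all 22 alternatives kept it past the threshold, with log2 values from 1.62 to 2.03. Snhg5 had 56.3, 49.5 and 50.7 CPM at P7, against 62.9, 75.4 and 94.4 CPM at P4, again without overlap, as for 23.2% of all genes on the lower side and 22.9% on the higher. Its log2 fold change was -0.57 ± 0.17 (SE, adjusted p = 0.0244). Thus 2 of 10 hosts passed, where 29.2% of all genes did, 14.5% higher and 14.7% lower. The Snhg5 call was lost with library totals in place of TMM scaling (log2 -0.39, adjusted p = 0.0901) and without P4 cKO library 2 (adjusted p = 0.0648), P4 cKO library 3 (log2 -0.41, adjusted p = 0.112), P7 cKO library 2 (adjusted p = 0.0788) or P7 cKO library 3 (adjusted p = 0.0671), and over all alternatives its adjusted p ran from 0.00726 to 0.112.

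Of the other 8 hosts, 6 had negative log2 fold changes at P7 in cKO, and none passed. Gas5 had a log2 fold change of -0.54 ± 0.23 (SE, edgeR adjusted p = 0.103), Snhg6 of -0.38 ± 0.24 (adjusted p = 0.257) and Snhg1 of -0.34 ± 0.22 (adjusted p = 0.269). The median over the 10 hosts was -0.29, against 0.00 over all genes. Without P7 cKO library 1 these differences were larger. Then 7 hosts passed as lower at P7, with edgeR adjusted p from 0.00245 for Gas5 to 0.0297 for Snhg12. These were Snhg20 (log2 -0.89), Gas5 (-0.87), Snhg6 (-0.72), Snhg1 (-0.68), Snhg5 (-0.63), Zfas1 (-0.60) and Snhg12 (-0.59). Snhg11 was still higher, at 1.62, and the median of the hosts was -0.62, against -0.03 over all genes. That is 8 of 10 hosts past the threshold, where 30.4% of all genes were, 15.3% lower. The count of hosts thus rests on whether library 1 is used.

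In WT, no host passed between P7 and P4 in edgeR, where 21.8% of all genes did, 11.8% higher and 9.97% lower. 2 hosts had an unadjusted p under 0.05, as did 37.2% of all genes. DESeq2 and limma-voom each called 1 host, where they called 4940 and 4345 of all genes. Snhg20 had 15.8 CPM at P7, against 76.5 and 36.0 CPM at P4, with a log2 fold change of -1.83 ± 0.60 (SE, edgeR adjusted p = 0.0511). It passed in 14 of 22 alternatives, with adjusted p from 4.63e-06 to 0.238, and its size rested on P4 WT library 1, without which the log2 value was -1.20. Snhg11 had 69.1 CPM at P7, against 46.5 and 32.8 CPM at P4, with a log2 fold change of 0.80 ± 0.32 (SE, adjusted p = 0.0892). Snhg8 (-0.46 ± 0.58, adjusted p = 0.601) and Snhg12 (-0.43 ± 0.40, adjusted p = 0.469) were next. The P7 sample lay outside the P4 WT range in 8 hosts, 4 above, where 42.6% of all genes were, and 4 below, where 42.8% were. Without P7 cKO library 1, which is no part of this comparison but of the pooled spread, Snhg20 (adjusted p = 0.00243) and Snhg11 (adjusted p = 0.0219) passed, where 34.5% of all genes did.

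Whether the genotype difference itself changed with stage was tested as an interaction. No host and none of the 18419 genes passed in edgeR (0% called). 2 hosts had an unadjusted p under 0.05, as did 25.1% of all genes, and neither DESeq2 nor limma-voom called a host. Snhg20 had an interaction of 1.51 ± 0.68 on the log2 scale (SE, edgeR adjusted p = 0.198), Snhg11 of 1.05 ± 0.40 (adjusted p = 0.144) and Gas5 of -0.77 ± 0.41 (adjusted p = 0.258). The larger deficit of Snhg11 in cKO at P4 than at P7 was therefore not shown to differ between stages. Without P7 cKO library 1, Gas5 passed at -1.10 ± 0.29 (adjusted p = 0.0376), where 7.94% of all genes did. The comparisons share samples, so their values are not independent of each other.

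**Figure D3:**
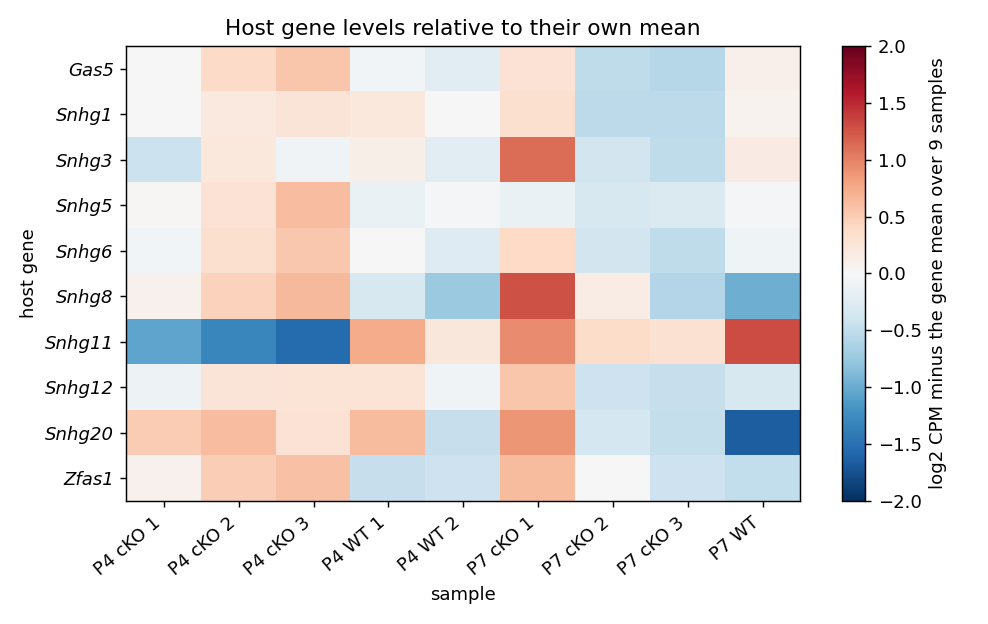
Log2 CPM of each host gene (vertical axis) minus its own mean over the 9 samples, by sample (horizontal axis); red is above and blue below that mean. Snhg11 is lowest in the 3 P4 cKO samples, where the other hosts are mostly at or above their means, and P7 cKO library 1 is above libraries 2 and 3 for all 10 hosts.

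As a description over the 9 samples, which share group and library effects, most hosts varied together, while Snhg11 had mostly negative correlations with them. Gas5 and Snhg6 had the closest profiles (Pearson r of log2 CPM 0.962), followed by Snhg8 and Zfas1 (0.944). Snhg12 was closest to Snhg1 (0.872) and Snhg5 to Gas5 (0.834). Snhg11 had a median r of -0.43 with the other hosts and its lowest, -0.75, with Snhg5, but r was -0.17 with Snhg1 and 0.31 with Snhg3, and P7 cKO library 1 was its highest P7 cKO value as in the others. The 5 genes outside the list with profiles most like the hosts' mean profile were Apip (r = 0.972), Lsm5 (0.966), Glrx3 (0.963), Gtf2h5 (0.958) and Atp5j (0.956). Lsm5, another LSm subunit, had 38.0, 55.7 and 50.7 CPM in P4 cKO, 36.6 and 33.9 in P4 WT, 61.1, 32.0 and 27.5 in P7 cKO and 37.7 in P7 WT. In each of these 5 genes P7 cKO library 1 was the highest of the 9 samples.

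Reads on the snoRNA genes inside the hosts were few except for Snord22. TruSeq libraries hold mostly longer RNA, and a read on an intronic snoRNA can come from the snoRNA, a precursor or unspliced host RNA, which cannot be told apart here. Of the 9 snoRNA genes, 8 lie in introns and were tested. Snora24 lies in the single exon of Snhg8 and is listed at 0 reads in every library. That stretch is shared, so an absent Snora24 cannot be told from reads counted to Snhg8 or to neither gene. None of the 8 passed in any of the 5 comparisons in edgeR or limma-voom, and DESeq2 called Snord22 at P4 alone. Unadjusted p-values were under 0.05 for Snord22 at P4 and for Snord47 between stages in WT.

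Snord22, in an intron of Snhg1, had 5.15, 4.96 and 4.85 CPM in P4 cKO, against 10.7 and 7.93 CPM in P4 WT. The groups did not overlap, and the log2 fold change was -0.90 ± 0.29 (SE, edgeR adjusted p = 0.0710, unadjusted p = 0.00941). It passed in 9 of 22 alternatives, with adjusted p from 0.0133 to 0.440 and log2 values from -1.12 to -0.67. At P7 it had 6.99, 3.57 and 4.76 CPM in cKO, against 7.89 CPM in WT, again lower in every cKO library and not past the threshold (log2 -0.63 ± 0.35, adjusted p = 0.234). Its host Snhg1 overlapped between genotypes at P4. Per 100 reads of Snhg1, Snord22 had 6.60, 5.54 and 5.15 reads in P4 cKO, against 11.7 and 10.2 in P4 WT. At P7 there were 7.14, 6.56 and 8.78 in cKO, against 9.57 in WT, so that the cKO libraries lay below WT in both stages.

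In Zfas1 the ratio was lower in P4 cKO, with 1.53, 1.27 and 1.20 Snord12 reads per 100 host reads, against 1.89 and 3.09 in P4 WT. The groups did not overlap, but the values rest on 20 to 38 snoRNA reads a library. Snord12 itself overlapped, unlike Snord22, with 0.78, 0.86 and 0.87 CPM in P4 cKO, against 0.66 and 1.12 CPM in P4 WT. Its host Zfas1 was higher in every P4 cKO library. For Snhg12 the sum of 4 snoRNAs came to 24.5, 13.8 and 19.8 per 100 host reads in P4 cKO, against 19.7 and 21.2 in P4 WT. The genotypes overlapped there. At P7 it came to 19.6, 27.2 and 24.8 in cKO, against 34.7 in WT. Snord47 in Gas5 had 0.107 to 0.641 reads per 100 host reads over the samples. In the P7 WT sample the ratio was the highest of the 9 samples for Gas5, Snhg12 and Zfas1.

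**Figure D4:**
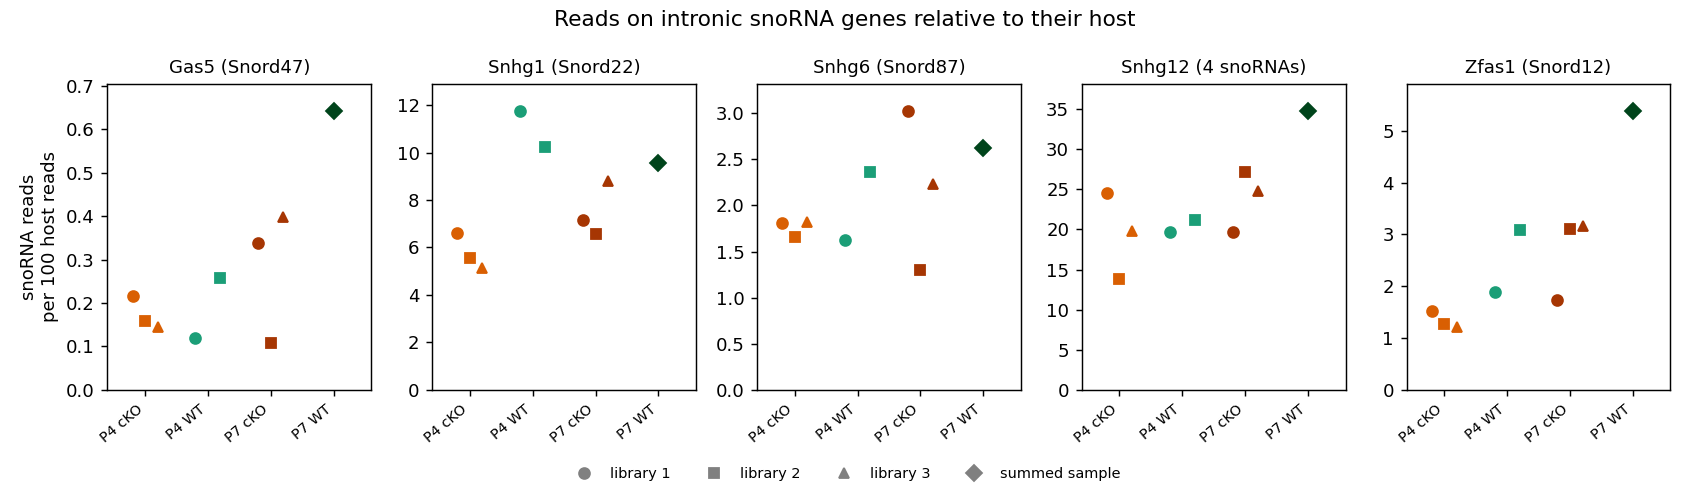
Reads on intronic snoRNA genes per 100 reads of their host gene (vertical axis, each panel from 0) by group for 5 hosts; markers give the library number and the diamond is the summed P7 WT sample. In the Snhg1 panel the 3 P4 cKO samples lie at 5.15 to 6.60, below the P4 WT samples at 10.2 and 11.7.

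Coding snoRNA hosts and other noncoding hosts were set beside these 10 genes, with the same threshold. Of 18 hosts that code for ribosomal proteins, 10 were higher and none lower in P4 cKO, with a median log2 fold change of 0.78, among them Rpl23a (1.12 ± 0.18 SE, edgeR adjusted p = 0.0122) and Rps3 (1.56 ± 0.28, adjusted p = 0.0154). At P7, 7 of the 18 were higher and none lower in cKO. With a correction for exon length, 3 of the 18 passed at P4 and 0 at P7, and without P7 cKO library 1 the counts were 13 and 8. None of the 18 passed at P4 without P4 cKO library 2, P4 cKO library 3 or P4 WT library 1, and 1 passed at P7 without P7 cKO library 2. From P4 to P7, 10 of them fell in cKO and 3 in WT, with Rpl10 at -1.11 ± 0.15 (adjusted p = 3.66e-04) in cKO. Of 17 other coding hosts, 3 were higher in P4 cKO, among them the translation factors Eef2 (1.22 ± 0.27, adjusted p = 0.0251) and Eef1b2 (1.48 ± 0.36, adjusted p = 0.0328), and 1 was higher and 1 lower at P7. Of 10 other noncoding hosts, 9 were tested and none passed at P4, while Snhg15 was higher in P7 cKO (1.67 ± 0.48, adjusted p = 0.0357) and fell from P4 to P7 in WT (-1.62 ± 0.49, adjusted p = 0.0373). The P7 call of Snhg15 was lost with the length correction. Whether these lists differ from the 10 hosts was not tested.

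Of 8 core proteins of snoRNA particles, 3 were higher and none lower in P4 cKO. These were Nhp2 (1.17 ± 0.21 SE, edgeR adjusted p = 0.0160) and Nop10 (1.17 ± 0.27, adjusted p = 0.0269) of the H/ACA particle, and Fbl (0.80 ± 0.18, adjusted p = 0.0262), the methyltransferase fibrillarin. Fbl (1.03 ± 0.24, adjusted p = 0.0172) and Nhp2 (1.03 ± 0.27, adjusted p = 0.0284) were also higher in P7 cKO. With the length correction, 1 of the 8 passed at P4 and 0 at P7, and with the correction for length and GC content 0 passed at either stage. Of 14 factors of nonsense-mediated decay, 3 were higher and none lower in P4 cKO, with Upf3a at 0.88 ± 0.16 (adjusted p = 0.0173), and 3 were higher and 1 lower in P7 cKO. Of 19 genes of general RNA decay, which hold the LSm subunits, 2 were higher in P4 cKO, Lsm4 (0.95 ± 0.26, adjusted p = 0.0441) and Ddx6 (0.70 ± 0.20, adjusted p = 0.0497). In edgeR 0 of the 19 passed with library totals and 1 with RLE factors, while DESeq2 called 2. At P7, Lsm4 was higher (1.15 ± 0.34, adjusted p = 0.0408) and Patl1 lower (-1.07 ± 0.21, adjusted p = 0.0102) in cKO. Of 10 genes that control mRNAs with a pyrimidine tract at the start, none was higher and Tial1 (-0.73 ± 0.19, adjusted p = 0.0407) was lower in P4 cKO, and 2 were higher and 2 lower in P7 cKO. Of these lists, of the other coding hosts and of the cell type markers below, 0 genes passed at P4 without P4 cKO library 2, P4 cKO library 3 or P4 WT library 1.

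Markers of several cell types differed between the groups as well. Summed over 15 germ cell markers, levels were 344 to 374 CPM in P4 cKO, against 417 and 523 CPM in P4 WT, and 3 of the 15 were lower and none higher. At P7 the sum was 1648 to 1979 CPM in cKO, against 2366 CPM in WT, with Uchl1 higher (1.11, edgeR adjusted p = 0.0158) and Tex15 (-1.15, adjusted p = 0.0236) and Dazl (-1.11, adjusted p = 0.0281) lower in cKO. Much of the lower P7 sum lay in Dazl, with 402, 376 and 400 CPM in cKO, against 850 CPM in WT. The median log2 fold change of the 15 markers at P7 was 0.19, against 0.08 over all genes. Summed over 12 Sertoli cell markers, levels were 5735 to 6502 CPM in P4 cKO, against 3429 and 4500 CPM in P4 WT, and 4 were higher and none lower. At P7 the Sertoli sum was 4956 to 5472 CPM in cKO, against 5395 CPM in WT, with 1 marker higher and 1 lower. In P4 cKO, 3 of 9 Leydig cell, 3 of 11 stromal, 3 of 10 macrophage and 1 of 8 endothelial markers were also higher, and none was lower. The Leydig sums overlapped, at 1662 to 1793 CPM in P4 cKO and 1525 to 1797 CPM in P4 WT. Stromal sums overlapped too, at 8413 to 11852 and 7532 to 8934 CPM in that order. Macrophage sums (91.3 to 150 and 88.4 to 89.3 CPM) and endothelial sums (341 to 373 and 286.8 to 286.9 CPM) did not. From P4 to P7, 14 of the 15 germ cell markers rose in cKO and 11 in WT. In cKO, 7 of 11 stromal, 7 of 8 endothelial, 5 of 9 Leydig cell and 6 of 10 macrophage markers fell, where 14.7% of all genes did. In WT, 2, 5, 2 and 1 of them fell in that order, where 9.97% of all genes did, and 2 Leydig cell markers rose. Summed over 6 erythroid markers, levels were 2.19 to 3.16 CPM in P7 cKO, against 16.4 CPM in the P7 WT sample. Alas2 was lower in P7 cKO (-2.54, edgeR adjusted p = 0.00642). At P4 the sums overlapped, at 4.37 to 19.4 CPM in cKO and 5.04 to 6.16 CPM in WT. Of these markers, the globin genes Hba-a1, Hba-a2, Hbb-bs and Hbb-bt had no read in any library, for a reason that was not tested. The part of cell composition in the values of Snhg11 and of the other hosts was not tested.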

How the data were processed

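Testis RNA of 10 libraries was analysed from 1 table of genes. The authors deposited raw read counts, per the file headers, beside coordinates and exon length. The submitters' processing notes name featureCounts and Subread 2.0.6 for counting, STAR 2.7.11a, SAMtools 1.6, Trim Galore 0.6.10, MultiQC 1.14 and FastQC 0.12.1, on GRCm38 (mm10). The sources used here give neither strand nor multi-mapping settings. Of low counts (under 50), 67.8% to 80% were even, which is what counting each mate of a pair gives, so reads are not independent molecules.

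The members and the gene lists were chosen with earlier results of these data known. Libraries were grouped by their titles. The P7 WT libraries were summed into 1 sample, assumed to vary like the other groups, which left 9 samples and 5 residual degrees of freedom. Genes were kept by filterByExpr, and edgeR 4.0.16 (R 4.3.3, TMM, robust quasi-likelihood F test, two-sided) gave p-values, adjusted by Benjamini-Hochberg over 18419 genes with a threshold of 0.05. Each SE is the absolute log2 fold change over the root of F. CPM values use TMM factors. For each comparison, fold changes are printed for hosts past the threshold and for 4 others of smallest p, and, added after seeing the data, for those past it without P7 cKO library 1. For context lists up to 3 members past the threshold with the smallest p could be named. Not all genes that met this rule are named in the text. Alternatives were RLE factors, library totals, no filter, a minimum count of 50, DESeq2 1.42.0, limma-voom (limma 3.58.1), the compared libraries alone, 10 separate libraries, the replicate number as a block, offsets for exon length and GC content, and leaving out each library. The scripts were tested on simulated data.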

Additional observations from a re-analysis of the deposited data

Results flagged for a closer look

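The samples of Snhg5 separated in opposite directions in the contrasts of the 2 stages and of the 2 genotypes, by very little in WT. Every P4 cKO library (62.9, 75.4 and 94.4 CPM) lay above the P4 WT libraries (56.6 and 60.9 CPM), while every P7 cKO library (56.3, 49.5 and 50.7 CPM) lay below the P7 WT sample (61.0 CPM). Likewise every P7 library lay below every P4 library in cKO, while in WT the P7 sample lay above both P4 libraries, by 0.05 on the log2 scale against their mean. That WT gap was 60.97 CPM at P7 against 60.89 CPM in P4 library 2. Of all genes, 24.1% separated as higher in P4 cKO and 34.6% as lower in P7 cKO. From P4 to P7, 23.2% separated as lower in cKO and 42.6% as higher in WT. This separation of samples is no test of the difference. The genotype by stage interaction in edgeR was -0.63 ± 0.30 on the log2 scale (SE, adjusted p = 0.214), which did not pass, and over the alternatives it ran from -0.85 to -0.31 with adjusted p from 0.0154 to 0.482.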

How the results depend on the processing

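In each comparison only some single genes were followed through the alternatives, and their signs held except for 3 values near 0. Snhg5 at P4 was -0.016 with the replicate block and length offset together, Snhg1 at P7 was 0.059 with the length and GC offset, and Snhg12 from P4 to P7 in cKO was 0.0048 with library totals. Among hosts not followed, some log2 fold changes turned without P7 cKO library 1. Snhg3 went from 0.12 to -0.60 at P7 and from 0.35 to -0.36 between stages in cKO. Snhg8 went from 0.07 to -0.59 between stages in cKO, and Snhg12 from 0.29 to -0.12 at P7. The median log2 fold change of the hosts turned with the setting: at P7 (0.05) it ran from -0.47 with the length offset to 0.28, and was -0.31 without P7 cKO library 1. From P4 to P7 in WT (0.00) it ran from -0.25 to 0.30, and for the interaction (-0.03) from -0.56 to 0.24. Counts of hosts past the threshold moved more. At P4 (1 host, 8.96% of all genes), DESeq2 called 2 (16.3%) and the compared libraries alone 3 (19.1%). Leaving out 1 library gave 0 to 3, with 3 without P7 cKO library 1 (22.7%). At P7 (0 hosts, 17% of all genes), a minimum count of 50 (21.6%) and limma-voom (18.9%) each called 1. DESeq2 (23.1%) and the length offset (13%) each called 2, and the 10 separate libraries 3 (39.2%). The replicate block called 3 there (42.3% of all genes in that fit) and the block with length offset 5 (38.5%). Leaving out 1 library gave 0 to 3, with 3 without P7 cKO library 1 (26.9%). From P4 to P7 in cKO (2 hosts, 29.2% of all genes), library totals called 1 (31.1%). Leaving out 1 library gave 1 to 8, with 8 without P7 cKO library 1 (30.4%). From P4 to P7 in WT (0 hosts, 4016 of all genes), library totals, the minimum count of 50, DESeq2, limma-voom and the length offset each called 1. They called 3976, 3967, 4940, 4345 and 3963 of all genes in that order. The compared libraries alone, the 10 libraries, the replicate block and the block with length offset each called 2 there. They called 4958, 7279, 7814 and 7713 of all genes in that order. Leaving out 1 library gave 0 to 2 hosts. For the interaction (0 hosts), the 10 libraries called 1 (3105 of all genes), the replicate block 2 (4311) and the block with length offset 4 (4293). Leaving out 1 library gave 0 to 1 host, with 1 without P7 cKO library 1 (1455 of all genes). The causes were not tested.

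Whether replicate numbers pair the samples cannot be decided from the check made. Deviations of same-numbered libraries from their group means correlated at -0.15 to 0.28 in 13 pairs, with 4 pairs over 0.1. Libraries with different numbers were not compared in this way. Library totals put the median log2 fold change of all genes at -0.16 at P4, 0.19 at P7, 0.18 between stages in cKO, -0.11 in WT and 0.33 for the interaction, against 0.00, 0.08, 0.00, -0.03 and 0.07 with TMM. Of all genes at P7, edgeR called 3129, but 0 with the compared libraries alone, 2 with the length and GC offset and 7438 with the replicate block. For the interaction it called 0 of all genes, but 3105 with the 10 libraries and 4311 with the replicate block, and DESeq2 called 1665. WT at P7 is 1 sample, so its error is borrowed from the other groups. Every host had 606 reads or more in each sample, except Snhg11 in P4 cKO with 330 to 466, while the tested snoRNAs other than Snord22 had 6 to 129 reads, which limits their precision.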
